A study of Mus musculus with 4 samples.

Results

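Pericytes of dystrophic mouse muscle were described here as 209 of 31077 cell barcodes, 0.673%, from 4 single-cell libraries. They were selected on their own counts of unique molecular identifiers (UMIs, 1 per captured transcript). A member held at least 3 UMIs of Rgs5, at least 1 UMI of Kcnj8 and Abcc9 together, at most 2 of Myh11 and 0 of Pdgfra, Cdh5 and Ptprc. Barcodes entered the selection with at least 500 UMIs, 300 genes and at most 15% mitochondrial UMIs. The study measured mononuclear cells from quadriceps and diaphragm of mice of 2 genotypes aged 14 weeks, with 1 library for each muscle and genotype. All mice carried mdx5cv, a mutation of the dystrophin gene that models Duchenne muscular dystrophy. The mdx5cv/Ccr2-/- mice in addition lacked Ccr2, the chemokine receptor that draws monocytes from the blood. Where 4 values stand in a row, they follow the order mdx5cv quadriceps, then quadriceps of mdx5cv/Ccr2-/-, then diaphragm of mdx5cv, then that of mdx5cv/Ccr2-/-.

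Pericytes sit on the outer wall of capillaries and small venules, inside the basement membrane that they share with the endothelium. Endothelial PDGF-B recruits them through the receptor PDGFRB, Notch signals from the endothelium act on them through NOTCH3, and a potassium channel opened by a fall in ATP sets their membrane potential. Smooth muscle cells of arterioles are their closest relatives and differ by a dense contractile apparatus. In skeletal muscle, pericytes are known for control of capillary flow, for vessel stability and as one of several stromal populations near regenerating fibres.

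With 1 library per group, the differences below lack any check against replicates, and p-values are not given. The 95% intervals are exact and cover counting error only, not the spread between animals. The number of animals behind a library is not given in the sources used here. Levels are UMIs of a gene per 1000000 UMIs (CPM), from the summed UMIs of a library's pericytes. Ccr2 itself was at 248, 15.3, 132 and 8.85 CPM over all barcodes that passed, lower in both libraries labelled mdx5cv/Ccr2-/-, and at 0 UMIs in the pericytes of every library. The libraries shared between 9 and 30 barcode sequences per pair, and no sequence was a pericyte in more than 1 library.

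The quadriceps libraries gave 66 pericytes in mdx5cv and 91 in mdx5cv/Ccr2-/-, and the diaphragm libraries gave 33 and 19. Their summed depth was 212301, 270049, 59480 and 56233 UMIs, so that a gene with 0 UMIs could still be present at up to 14.1, 11.1, 50.4 and 53.3 CPM (3 counts). The pericytes were shallow, with medians of 2205.5, 2738, 1578 and 2747 UMIs per cell beside 8216, 6829, 6122 and 9126 over all barcodes that passed. Their median mitochondrial shares were 5.30%, 5.76%, 5.65% and 6.51%, beside 3.71%, 3.98%, 3.41% and 3.58%. A limit on raw counts, such as 2 UMIs of Myh11, is met more easily by a shallow barcode, and shares are therefore also given below at equal depth. The deepest pericyte of the mdx5cv quadriceps held 25485 of that library's 212301 pericyte UMIs. Among these were 14 UMIs of Rgs5, 3 of Abcc9, 3 of Pdgfrb and 3 of Notch3, few for that depth, so the name is weakly borne out for this cell.

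The label was checked with 8 pericyte markers that the selection had not used: Pdgfrb, Notch3, Higd1b, Vtn, Cspg4, Ndufa4l2, Mcam and Cox4i2. At least 3 of the 8 were detected in 56 of 66, 86 of 91, 27 of 33 and 17 of 19 pericytes. The summed level of these 8 was 4814, 6203, 5649 and 5619 CPM, beside 257, 360, 251 and 314 CPM in all other barcodes. Lymphocyte and mesothelial markers were at 0 in the pericytes of every library. Summed macrophage markers were at 2.21% to 5.14%, and fibroblast markers at 6.13% to 15.6%, of the level in the other barcodes of the same library. Endothelial markers stood at 683, 1352, 1479 and 2952 CPM beside 4475, 6523, 1219 and 2275 CPM in the other barcodes, and so above them in both diaphragm libraries. Fabp4 made up 2490 of the 2952 CPM, and Cdh5 was at 0 by the selection. In that library, the mdx5cv/Ccr2-/- diaphragm, the cell richest in Fabp4 held 75 of the 140 Fabp4 UMIs. Fabp4 was at 1300 CPM there without this cell, so the endothelial sum above the other barcodes in that library rested on this cell. Markers of vascular smooth muscle were higher than in the other barcodes of every library, at 1097 to 1867 CPM (229% to 497%). Those of muscle stem cells and myoblasts were higher as well, at 370 to 513 CPM (126% to 272%), of which Des, desmin, which pericytes are also known to express, made up 268, 263, 269 and 373 CPM. The 8 unused markers thus set the pericytes apart from all other barcodes as a whole. Markers of endothelium and smooth muscle were present beside them. Smooth muscle was not compared separately here, so this check cannot tell pericytes from smooth muscle cells. Barcodes left out at 3 or 4 Myh11 UMIs carried Notch3 in 92.9% and Higd1b in 62.5%, beside 77.5% and 47.8% of pericytes. Their median depth was 3708 UMIs, beside 2477 in pericytes.

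Barcodes next to the limits on Rgs5, on the channel and on Myh11 were counted. Over the 4 libraries 2 pericytes held exactly 3 Rgs5 UMIs, and 4 further barcodes with 2 would have met every other condition. A channel count of 1 was held by 23 pericytes, and 38 barcodes failed at 0. A Myh11 count of 1 or 2 was held by 125 pericytes, and 56 barcodes were left out at 3 or 4. Those 56 barcodes carried Pdgfrb in 100% and Vtn in 87.5% of cells, beside 93.6% and 77.6% in the 125, at median depths of 3708 and 2629 UMIs. The limits at 0 were applied last and took the 320 barcodes left to 300 for Pdgfra, 221 for Cdh5 and 209 for Ptprc.

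Pericytes made up 1.26% (95% interval 0.976% to 1.60%) and 1.34% (1.08% to 1.64%) of the barcodes that passed in quadriceps. In diaphragm they made up 0.262% (0.181% to 0.368%) and 0.295% (0.178% to 0.46%). The diaphragm share was thus 0.208 times the quadriceps share in mdx5cv (0.133 to 0.321) and 0.221 times (0.127 to 0.365) in mdx5cv/Ccr2-/-. Fibroblast barcodes (Pdgfra at least 2, Rgs5 0) were 15.5% and 15.4% of those that passed in quadriceps and 36.1% and 47.1% in diaphragm. Endothelial barcodes (Cdh5 and Pecam1 present, Rgs5 0) were fewer in diaphragm, at 0.312 and 0.393 times their quadriceps share. Against the sum of pericytes and endothelial barcodes, the diaphragm ratios were nearer to 1, at 0.684 (0.436 to 1.05) and 0.574 (0.331 to 0.949).

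For genotype, the ratio of mdx5cv/Ccr2-/- to mdx5cv was 1.06 (0.764 to 1.48) in quadriceps and 1.12 (0.604 to 2.04) in diaphragm, and both intervals hold 1. At equal depth, with each barcode of at least 2000 UMIs thinned to 2000 before the selection, the share ratios were 1.33 (0.965 to 1.84) and 1.90 (0.781 to 4.63). The diaphragm share was then 0.0766 times the quadriceps share in mdx5cv and 0.11 times in mdx5cv/Ccr2-/-, lower than without thinning. These ratios rest on 63, 109, 12 and 12 members. Shallower barcodes were left out, and 39, 64, 9 and 12 of the pericytes above had at least 2000 UMIs. In both quadriceps libraries and the mdx5cv diaphragm the members after thinning outnumber these. The thinned selection there thus also took in barcodes that had failed the limits on raw counts. These ratios therefore describe another set of cells and not the same pericytes at equal depth. The loss of shallow barcodes was uneven as well, and the part of either change in these ratios was not tested. The endothelial share was higher in mdx5cv/Ccr2-/-, 1.55-fold in quadriceps and 1.95-fold in diaphragm. Pericytes per 100 endothelial barcodes were accordingly lower, at 7.48 and 5.12 in quadriceps and 5.00 and 2.88 in diaphragm. Of pericytes and endothelial barcodes together, the pericyte share was 0.700 times that in mdx5cv (0.504 to 0.976) in quadriceps and 0.588 times (0.316 to 1.06) in diaphragm.

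This result depended on where the Myh11 limit lay. Barcodes that met every condition but the Myh11 limit numbered 107, 195, 38 and 28. Of these, 38.3% (29.1% to 48.2%), 53.3% (46.1% to 60.5%), 13.2% (4.41% to 28.1%) and 32.1% (15.9% to 52.4%) held 3 or more Myh11 UMIs. Myh11 encodes the smooth muscle myosin heavy chain, and the left-out barcodes were at 1079 to 1987 CPM of it, beside 231 to 344 CPM in the pericytes. With no Myh11 limit the genotype ratio was 1.40 (1.10 to 1.79) in quadriceps and 1.44 (0.850 to 2.41) in diaphragm. The Myh11-rich barcodes alone were 1.95 times (1.35 to 2.87) and 3.51 times (1.06 to 13.3) as frequent in mdx5cv/Ccr2-/-. Their median depth was 4026 to 6456 UMIs, above that of the pericytes of each library.

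**Figure D1:**
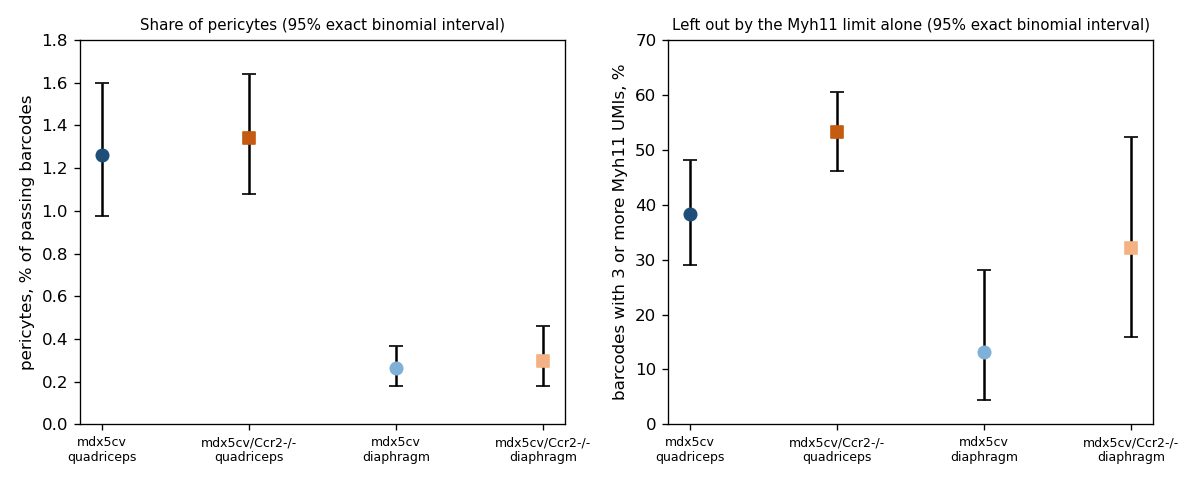
Left, pericytes as a percentage of barcodes that passed in each library, with exact 95% binomial intervals. Right, of barcodes meeting every condition but the Myh11 limit, the percentage with 3 or more Myh11 UMIs. Pericyte shares lie near 1.3% in quadriceps and 0.3% in diaphragm, and the Myh11-rich percentage is higher in mdx5cv/Ccr2-/- of each muscle, with overlapping intervals.

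The genes that stood out in pericytes were ordered by their lowest fold over all other barcodes in any library. Since the cells were chosen on counts, these levels describe the chosen cells and test nothing. Abcc9, Kcnj8 and Rgs5 led because the selection required them. Rgs5, a GTPase activator that dampens receptors for vasoactive peptides, was at 11290, 13960, 11310 and 13730 CPM and at 27.1 to 324 CPM in other barcodes. Abcc9, the regulatory subunit of the ATP-sensitive potassium channel, was at 1488, 1622, 2085 and 1778 CPM. Kcnj8, its pore, was at 626, 922, 1715 and 462 CPM, lowest in the mdx5cv/Ccr2-/- diaphragm and highest in the mdx5cv diaphragm. The genes of the pore and the regulatory subunit lie 16 kb apart on mouse chromosome 6, Kcnj8 at chr6:142564837-142571614 and Abcc9 at chr6:142587862-142702315, both on the minus strand (GRCm38, GENCODE M21).

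Among the genes after these was Vtn, the adhesive glycoprotein vitronectin, at 754, 1152, 1076 and 1280 CPM, and at most 47.8 CPM in other barcodes. Notch3 was at 834, 989, 656 and 747 CPM. Higd1b, a mitochondrial inner membrane protein, was at 198, 448, 319 and 569 CPM and never above 7.54 CPM elsewhere. Ifitm1, Art3, the chloride channel gene Ano1, the carboxypeptidase gene Cpm and the long non-coding RNA Carmn followed. Agtr1a, the angiotensin II receptor, was at 198, 156, 202 and 196 CPM. The soluble guanylate cyclase subunits Gucy1a1 (984, 926, 1009 and 871 CPM) and Gucy1b1 (490, 567, 790 and 747 CPM), the receptor for nitric oxide, were also among the 20 leading genes. Pdgfrb, which was not used in the selection, was at 1620, 1852, 1614 and 1245 CPM and at 95.9 to 154 CPM in other barcodes, which include fibroblasts.

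Detection was compared at equal depth by thinning each cell to 1000 UMIs, which left out 5, 4, 8 and 1 shallower pericytes. Pdgfrb was then seen in 77.0%, 79.3%, 68.0% and 72.2% of pericytes and in at most 0.597% of endothelial barcodes, whose median depths before thinning were 2989.5 to 4795 UMIs. Vtn was seen in 49.2%, 52.9%, 60.0% and 66.7% of pericytes and in at most 0.324% of endothelial barcodes. Dcn, a fibroblast proteoglycan, was seen in 8.20%, 3.45%, 16% and 11.1% of pericytes. It was seen in 5.13%, 4.46%, 11.3% and 9.61% of endothelial barcodes, a cell type that should lack it.

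**Figure D2:**
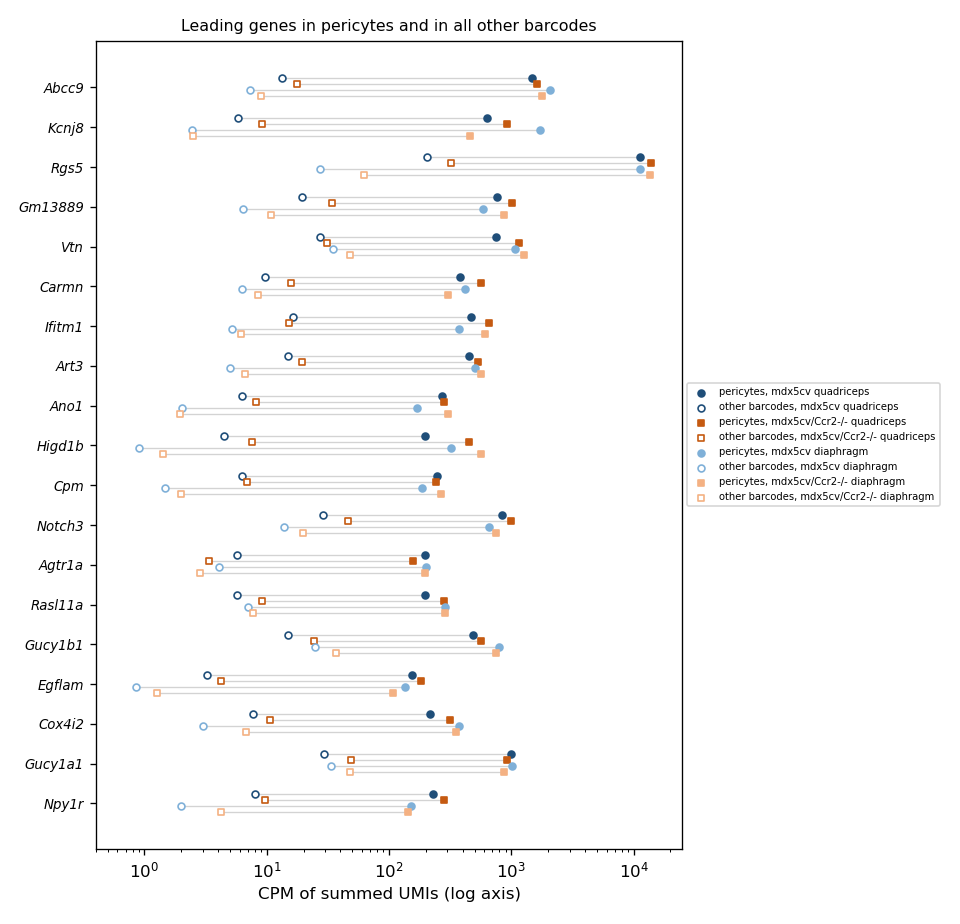
Levels of 19 of the 20 leading genes in CPM of summed UMIs (log axis), with filled symbols for pericytes and open symbols for all other barcodes of the same library. In each library, every one of these genes is over 15-fold higher in pericytes, and the levels in pericytes of the 4 libraries lie close together next to that gap.

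Upstream sequences are shown for 4 of the leading genes, the channel pair and a receptor and matrix gene of the same cells, to give the DNA next to their starts. RefSeq start sites of build GRCm38.p6 were matched for 14 of the 20 leading genes. Each line gives the 250 bases before the RefSeq start, 5′ to 3′ on the gene's strand. The GENCODE starts of Abcc9 and Vtn lie inside these windows, so the last bases shown for both are within the GENCODE gene. Capitals mark TGGGAA, the core letters bound by the Notch effector RBPJ, or ACGTG, the core of hypoxia response elements, on either strand. The windows are chr6:142571615-142571864 (minus) for Kcnj8, chr6:142702275-142702524 (minus) for Abcc9, chr17:32166891-32167140 (minus) for Notch3 and chr11:78498870-78499119 (plus) for Vtn.
Kcnj8: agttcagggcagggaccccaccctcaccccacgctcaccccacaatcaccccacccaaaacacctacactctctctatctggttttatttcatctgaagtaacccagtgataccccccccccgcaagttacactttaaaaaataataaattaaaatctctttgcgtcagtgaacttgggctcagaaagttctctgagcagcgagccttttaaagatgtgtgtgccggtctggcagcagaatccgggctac
Abcc9: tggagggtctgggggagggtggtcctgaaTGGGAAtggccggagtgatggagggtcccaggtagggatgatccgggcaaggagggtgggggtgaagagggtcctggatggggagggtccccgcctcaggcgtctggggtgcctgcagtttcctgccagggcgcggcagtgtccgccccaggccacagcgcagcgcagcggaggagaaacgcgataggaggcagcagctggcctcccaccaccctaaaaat
Notch3: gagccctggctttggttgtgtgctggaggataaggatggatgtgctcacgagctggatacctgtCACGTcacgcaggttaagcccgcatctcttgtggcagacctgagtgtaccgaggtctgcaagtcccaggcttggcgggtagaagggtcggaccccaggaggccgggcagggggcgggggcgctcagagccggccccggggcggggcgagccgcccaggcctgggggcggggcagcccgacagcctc
Vtn: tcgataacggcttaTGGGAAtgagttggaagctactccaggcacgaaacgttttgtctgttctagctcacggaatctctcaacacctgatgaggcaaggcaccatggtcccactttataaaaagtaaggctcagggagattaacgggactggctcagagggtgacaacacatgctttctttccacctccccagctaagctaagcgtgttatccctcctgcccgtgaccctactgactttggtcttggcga
TGGGAA was in the windows of Abcc9, Vtn, Ifitm1, Art3, Ano1, Gucy1b1 and Gucy1a1, 7 of 14, and in 24.1% of the windows of all 27025 genes of the table. ACGTG was in those of Cpm and Notch3, 2 of 14 (14.3%), and in 18.5% of all. A match is a description of letters in this window and no evidence of binding.

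Vascular smooth muscle barcodes (Myh11 and Acta2 at least 3 each, with Pdgfra, Cdh5 and Ptprc at 0) were the nearest comparison. There were 81, 187, 46 and 55 of them, with median depths of 9057, 6903, 5659 and 8859 UMIs. Myh11, Kcnj8 and Abcc9 entered the definitions, so their differences are no result, and no comparison of these sets is a test. Pericytes were higher than smooth muscle in Rapgef2, an exchange factor for the GTPase RAP1, at 528, 426, 521 and 320 CPM beside 80.5, 67.0, 26.6 and 16.5 CPM. Agtr1a was at 156 to 202 CPM in pericytes and 6.65 to 22.6 CPM in smooth muscle, and Tnfrsf21, a death domain receptor, at 213 to 337 CPM beside 16.5 to 59.7 CPM. Nr1h3, the oxysterol receptor LXR alpha, was at 84.8, 99.98, 151 and 142 CPM in pericytes, and was not detected in smooth muscle of either diaphragm library. Pdzd2, Add3 and Abca8a followed.

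Smooth muscle was higher in contractile genes. Acta2, smooth muscle actin, was at 415, 689, 387 and 747 CPM in pericytes and at 7857 to 13750 CPM in smooth muscle, where it was part of the definition. Tagln, which binds actin, was at 292, 537, 420 and 533 CPM beside 5811 to 11970 CPM. Mustn1 was at 70.7, 77.8, 134 and 160 CPM beside 1466 to 2328 CPM. Tpm2, Palld, Pcp4l1, Dstn, Ckb and Crip1 were lower in pericytes as well, with log2 ratios (5 CPM added) of -2.23 or less in every library.

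Some genes often used for pericytes were also high in smooth muscle. Notch3 was at 535 to 806 CPM there, below its level in the pericytes of both quadriceps libraries given above. Ndufa4l2 was at 759 to 892 CPM in smooth muscle beside 650, 978, 1244 and 818 CPM in pericytes. Cox4i2 was at 279 to 586 CPM in smooth muscle and 217 to 370 CPM in pericytes. Gucy1a1, Rasl11a and Gm13889 likewise differed from smooth muscle by less than 2-fold in each library. Steap4, a metalloreductase, at 1380, 1481, 1295 and 1440 CPM beside 66.5 to 350 CPM, and Cxcl12, at 989, 1063, 1026 and 498 CPM beside 53.2 to 281 CPM, were higher in pericytes in all 4 libraries. Cavin2, a coat protein of caveolae, was at 480, 529, 773 and 445 CPM beside 26.8 to 130 CPM.

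**Figure D3:**
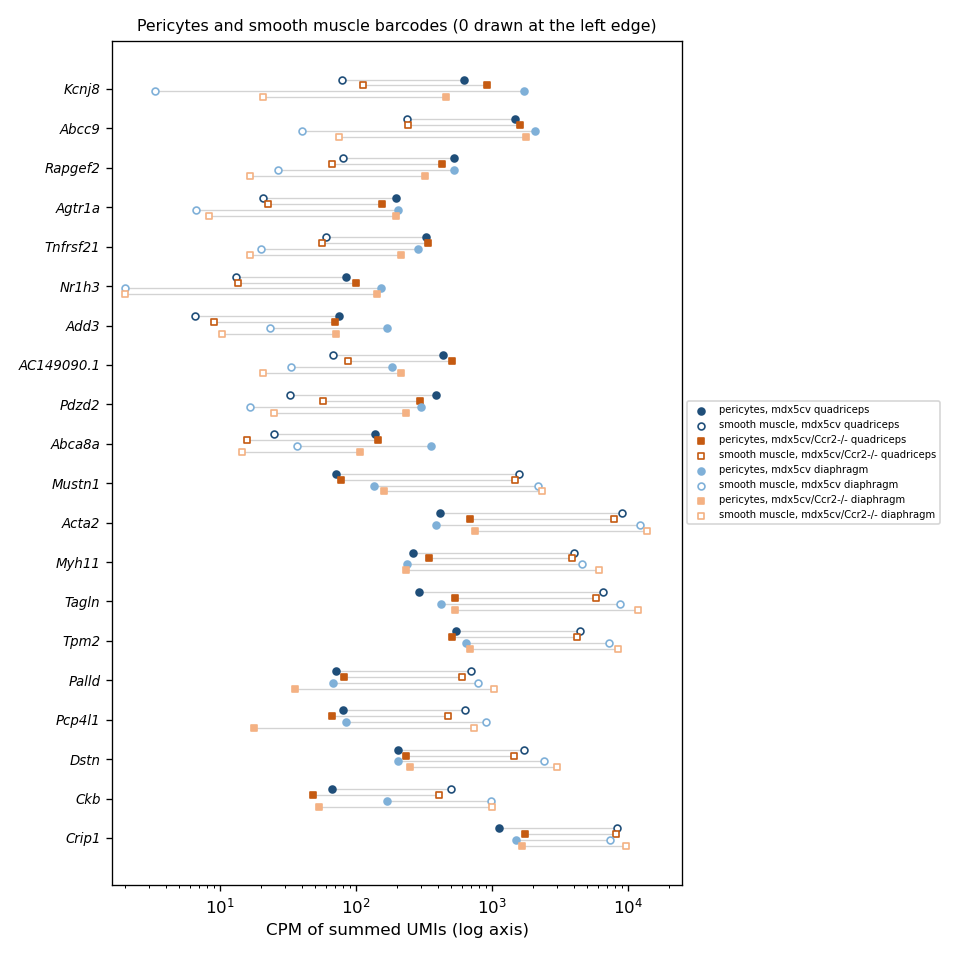
Levels in CPM of summed UMIs (log axis) of the 10 genes most above and the 10 most below smooth muscle in all 4 libraries, with filled symbols for pericytes and open symbols for smooth muscle. The upper 10 genes have every filled symbol to the right of its open partner, and the lower 10 have it to the left.

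For the comparisons of genotype and muscle, 2590 genes were measured, those with a mean of at least 50 CPM and at least 40 UMIs over the libraries. A gene is called past 2-fold by the log2 ratio of CPM with 5 CPM added. In quadriceps 65 genes (2.51%) were past 2-fold higher in mdx5cv/Ccr2-/- and 30 (1.16%) lower. In diaphragm, where fewer UMIs were counted, 336 (13.0%) were higher and 288 (11.1%) lower. Past 2-fold in the same direction in both muscles were 10 genes (0.386%) higher and 4 (0.154%) lower, and for Clec3b and Fabp4 among the higher and Hspb1 among the lower both counting intervals also left out 1. These counts have no replicate behind them and describe 4 libraries.

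Clec3b, the plasminogen-binding protein tetranectin, gave 3, 39, 0 and 10 UMIs in pericytes, which is 14.1, 144, 0 and 178 CPM. It was thus at or below the level that 3 counts give in both mdx5cv libraries and above it in both mdx5cv/Ccr2-/- libraries. The ratio in quadriceps was 10.2 (3.25 to 51.7). In diaphragm the mdx5cv/Ccr2-/- level was 3.53 times that of 3 counts in mdx5cv. This value leaves out the counting error of the 10 UMIs and is no lower bound. The UMIs came from 3 of 66, 23 of 91, 0 of 33 and 4 of 19 pericytes. In the mdx5cv/Ccr2-/- diaphragm 1 cell held 5 of the 10, and the level was 104 CPM without it. At 1000 UMIs per cell, 0%, 16.1%, 0% and 11.1% of pericytes held a Clec3b UMI, beside 0%, 1.10%, 1.29% and 2.17% of endothelial barcodes. Fibroblasts, in which Clec3b is abundant, were at 597, 670, 935 and 1333 CPM, also higher in mdx5cv/Ccr2-/- in both muscles but with a smaller gap, and smooth muscle at 19.5, 80.6, 69.8 and 41.2 CPM. Clec3b lies at chr9:123150946-123157432 on the plus strand (GRCm38), 945 kb before Ccr2 on the same chromosome, at chr9:124101950-124113557.

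Fabp4, a fatty acid carrier of capillary endothelium and adipocytes, was at 353, 889, 941 and 2490 CPM in pericytes, lowest in the mdx5cv quadriceps. The genotype ratio was 2.52 (1.93 to 3.31) in quadriceps and 2.64 (1.93 to 3.67) in diaphragm. A single pericyte held 75 of the 140 UMIs in the mdx5cv/Ccr2-/- diaphragm, and that library was at 1300 CPM without it. Without the cell richest in the gene in each library, an alternative chosen after seeing the data, the diaphragm ratio was 1.54, short of 2-fold. Other selections also ended the call: on the log2 scale with 5 CPM added, the genotype difference was 0.32 and 0.30 (quadriceps, diaphragm) after thinning before the selection and 0.30 and 0.57 with up to 10 Myh11 UMIs, and with Myh11 at 0 it was 0.58 in quadriceps. Endothelial barcodes held 14150 to 17650 CPM of Fabp4, fibroblasts 21.6 to 36.1 CPM and smooth muscle 550 to 635 CPM. The endothelial share of barcodes was also higher in mdx5cv/Ccr2-/-, and its part in the Fabp4 level was not tested.

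Hspb1, a small heat shock protein, was at 311, 144, 1698 and 284 CPM, highest in the mdx5cv diaphragm. There, 1 pericyte of 1855 UMIs gave 77 of 101 Hspb1 UMIs, and the library was at 416 CPM without it. The quadriceps ratio was 0.464 (0.304 to 0.701). Across the alternatives the genotype difference stayed negative and came as near to 0 as -0.32 in quadriceps and -0.59 in diaphragm (log2).

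Higd1b was past 2-fold in quadriceps only, at 198 and 448 CPM, a ratio of 2.27 (1.58 to 3.30). In diaphragm it was at 319 and 569 CPM, a ratio of 1.78 (0.980 to 3.33), so that the direction was shared and the second interval held 1. It was detected in 23 of 66, 53 of 91, 13 of 33 and 11 of 19 pericytes. Colec11, a collectin and known pericyte gene, gave 3 and 42 UMIs in quadriceps, a ratio of 11.01 (3.52 to 55.5), and 12 and 13 in diaphragm, a ratio of 1.15 (0.482 to 2.75). Without the richest cell of each library the diaphragm ratio of Colec11 was 0.130. Colec11 was named after its values were seen, as the other member of the pericyte list past 2-fold in quadriceps.

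**Figure D4:**
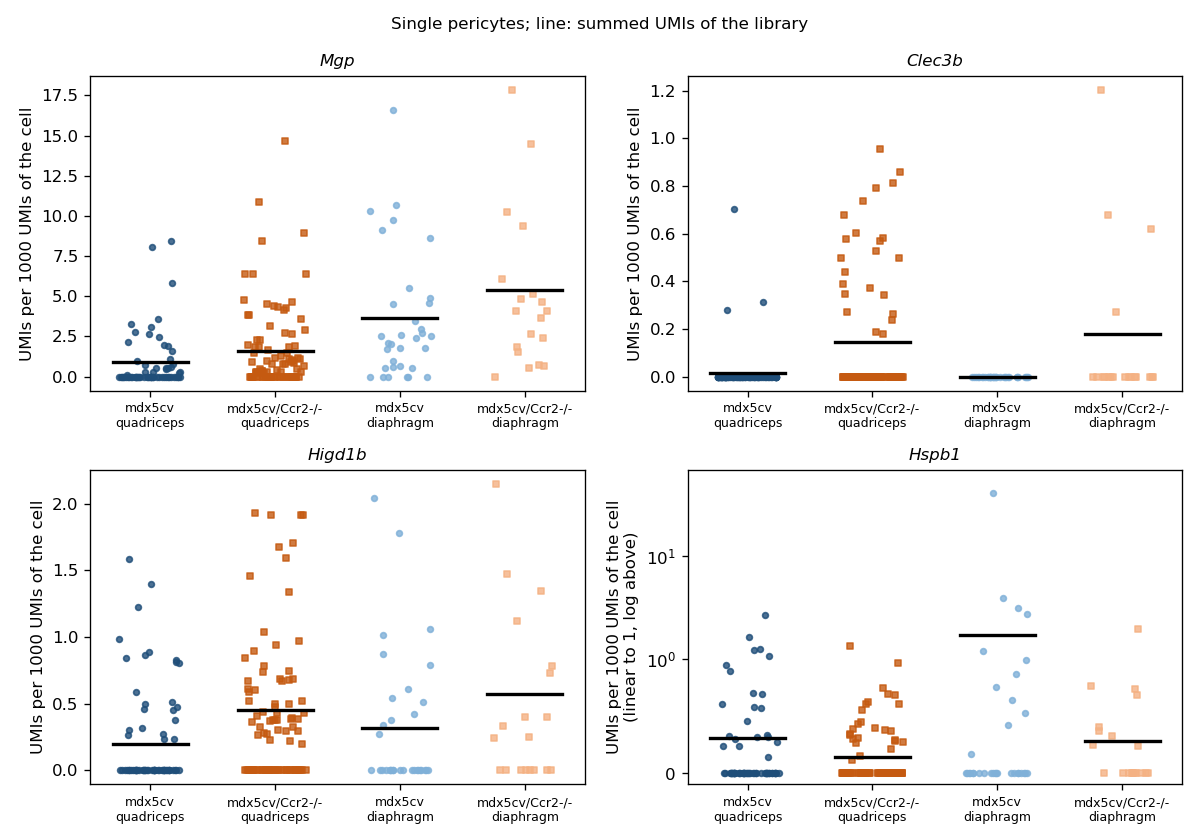
Each symbol is a pericyte, with its UMIs of Mgp, Clec3b, Higd1b or Hspb1 per 1000 UMIs of that cell, and the line is the level of the summed library. Mgp is spread over most diaphragm cells, Clec3b is nearly absent from both mdx5cv libraries, and the Hspb1 line of the mdx5cv diaphragm is lifted by 1 cell.

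Mgp was the gene with the most UMIs of the 12 that differed between the muscles as follows. In mdx5cv, 164 genes (6.33%) were past 2-fold higher in diaphragm and 262 (10.1%) lower, and in mdx5cv/Ccr2-/- 96 (3.71%) were higher and 251 (9.69%) lower. Higher in diaphragm in both genotypes were 15 genes (0.579%), and lower were 39 (1.51%). Both counting intervals left out 1 for Ccl19, Dcn, Mgp, Slbp, Fabp4, Fst and Hspa1b among the higher, and for Cd2ap, Col18a1, Ptk2, AC149090.1 and Cpe among the lower.

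Mgp, matrix Gla protein, an inhibitor of vascular calcification, gave 187, 436, 216 and 304 UMIs, or 881, 1615, 3631 and 5406 CPM, with both diaphragm libraries above both quadriceps libraries. The diaphragm ratio was 4.12 (3.37 to 5.04) in mdx5cv and 3.35 (2.88 to 3.89) in mdx5cv/Ccr2-/-. At 1000 UMIs per cell a UMI of Mgp was held by 27.9% and 50.6% of quadriceps pericytes and by 84.0% and 88.9% of diaphragm pericytes. In endothelial barcodes of the same libraries these shares were 5.73%, 11.9%, 12.8% and 12.7%, and in smooth muscle they were at most 27.3%. Fibroblasts were at 6245, 12340, 9707 and 10730 CPM, with no such split between the muscles. The value in pericytes also differed between genotypes, 1.83-fold (1.54 to 2.19) in quadriceps and 1.49-fold (1.25 to 1.78) in diaphragm, short of the 2-fold mark.

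Single cells held most UMIs of some others. Dcn was at 47.1, 37.0, 1564 and 231 CPM, and 86 of the 93 UMIs in the mdx5cv diaphragm came from 1 cell, the deepest pericyte of that library. Without the richest cell of each library the diaphragm ratio in mdx5cv was 3.95 in place of 33.2. The cell with 86 Dcn UMIs also held 11 of Col1a1, another fibroblast marker. With 17 of Rgs5, 1 of Pdgfrb and 0 of Notch3, its markers did not bear out the name well. In the mdx5cv/Ccr2-/- diaphragm the 13 Dcn UMIs came from 12 of 19 pericytes. All 19 Ccl19 UMIs of the mdx5cv/Ccr2-/- diaphragm came from 1 cell of 8048 UMIs, and 14 of 15 Fst UMIs there from another. The cell of 8048 UMIs also held 106 of 181 Igfbp5 UMIs of that library and 5 of 10 of Clec3b. It further held 8 of 20 UMIs of Ccl11, 6 of 11 of Flt1 and 13 of 30 of Tagln. Without this cell that library was at 249 CPM of Ccl11, 104 CPM of Flt1 and 353 CPM of Tagln. Slbp, a histone mRNA binding protein, was detected in 8 of 66, 14 of 91, 7 of 33 and 6 of 19 cells, at 42.4, 55.5, 134 and 160 CPM. Hspa1b was at 320, 270, 1345 and 551 CPM.

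The genes lower in diaphragm were detected in few cells there. Col18a1, a basement membrane collagen that is the source of endostatin, was at 179, 141, 33.6 and 35.6 CPM, from 38, 38, 2 and 2 UMIs. Cd2ap gave 35, 40, 2 and 2 UMIs and Ptk2, focal adhesion kinase, 35, 51, 3 and 3. Cpe, a carboxypeptidase that processes prohormones, was at 316, 378, 134 and 124 CPM, with diaphragm ratios of 0.426 (0.177 to 0.889) and 0.330 (0.129 to 0.704). AC149090.1 was at 433, 511, 185 and 213 CPM. Hoxc6, the only measured gene of 35 that mark position along the body, gave 20, 33, 1 and 0 UMIs. In mdx5cv the upper bound of the ratio was 1.12. In mdx5cv/Ccr2-/- the quadriceps level was 2.29 times that of 3 counts in diaphragm. This value leaves out the counting error of the 33 UMIs and is no lower bound.

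Gene groups were described from 25 lists by their counts past 2-fold and their median log2 ratio. Of all measured genes, 2.51% were higher and 1.16% lower for genotype in quadriceps, and 13.0% and 11.1% in diaphragm. The medians over all measured genes were 0.048 and 0.071 for genotype in quadriceps and diaphragm, and 0.024 and -0.035 for diaphragm over quadriceps in mdx5cv and mdx5cv/Ccr2-/-. In the list of pericyte identity, 28 of 37 genes were measured. For genotype, 2 were higher and 0 lower in quadriceps and 3 higher and 2 lower in diaphragm, with medians of 0.23 and 0.19. Identity genes with many UMIs included Ebf1, a transcription factor of mural cells, at 1587, 1633, 1379 and 1814 CPM, within 2-fold over all libraries. The 3 higher in diaphragm were Mcam, Postn and Cd248 and the 2 lower Plxdc1 and Ecm2, named after their values were seen.

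Of the contractile genes, 18 of 24 were measured, with medians of 0.23 and 0.13 for genotype, 1 higher and 0 lower in quadriceps and 0 and 1 in diaphragm. Acta2 was 1.66-fold (1.28 to 2.17) and 1.93-fold (1.14 to 3.37) higher in mdx5cv/Ccr2-/- in quadriceps and diaphragm. A UMI of it was seen in 34.8%, 41.8%, 33.3% and 31.6% of pericytes, so detection was not higher in the mdx5cv/Ccr2-/- diaphragm. There the richest cells held 13 and 12 of the 42 Acta2 UMIs. Without the richest cell of each library Acta2 was at 339, 589, 330 and 542 CPM. Tagln was 1.84-fold (1.36 to 2.52) higher in quadriceps and 1.27-fold (0.722 to 2.25) in diaphragm, and Cald1, caldesmon, 1.70-fold (1.46 to 1.98) and 1.35-fold (1.004 to 1.82). The frequency of Myh11-rich barcodes next to the limit was higher in the same libraries, and its part in these levels was not tested.

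Of 26 ion channel genes 10 were measured, with 0 past 2-fold for genotype in quadriceps and 0 higher and 2 lower, Kcnj8 and Stim1, in diaphragm. Ano1 was at 269, 281, 168 and 302 CPM. Of 36 receptor and cGMP genes 14 were measured, with 1 higher and 1 lower in quadriceps and 0 and 1 in diaphragm. Rgs4, a relative of Rgs5, was at 297, 470, 622 and 409 CPM, and Pde3a, a phosphodiesterase, at 377, 322, 353 and 320 CPM.

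Signals between pericytes and endothelium were as follows. Of 6 PDGF genes only Pdgfrb and Pdgfa were measured, and neither was past 2-fold in any comparison. Of 16 Notch genes found 6 were measured. Jag1, a ligand, was at 240, 189, 319 and 249 CPM and Hes1, a target, at 235, 237, 303 and 409 CPM. Heyl, another target, was at 245, 185, 202 and 35.6 CPM, the last from 2 UMIs, with ratios of 0.756 (0.502 to 1.14) and 0.176 (0.0192 to 0.792) for genotype in quadriceps and diaphragm. Of 19 genes of VEGF and angiopoietin signalling 3 were measured, led by the co-receptor Nrp1 at 499, 570, 790 and 533 CPM. Flt1, an endothelial receptor, was at 47.1, 111, 84.1 and 196 CPM. Gjc1, a connexin of mural cell gap junctions, gave 50, 84, 13 and 34 UMIs in 32, 45, 12 and 15 pericytes, with genotype ratios of 1.32 (0.920 to 1.91) and 2.77 (1.42 to 5.71).

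Of basement membrane genes 17 of 20 were measured, with a median of 0.19 for genotype in quadriceps, 0 past 2-fold, and 0.23 in diaphragm, 4 higher and 0 lower. Between muscles the medians were -0.36 in mdx5cv, with 0 higher and 4 lower, and -0.19 in mdx5cv/Ccr2-/-, with 1 higher and 2 lower. Of all measured genes, 6.33% were higher and 10.1% lower in diaphragm in mdx5cv, and 3.71% and 9.69% in mdx5cv/Ccr2-/-. Sparc, a matricellular protein, was at 2219, 3140, 2118 and 2970 CPM, 1.41-fold (1.26 to 1.59) and 1.40-fold (1.11 to 1.78) higher in mdx5cv/Ccr2-/-. Col4a1, a collagen IV chain, was at 1554, 1763, 1126 and 1618 CPM. In the interstitial matrix list 20 of 30 were measured. Col3a1 was at 1041, 1637, 1244 and 1014 CPM, beside 4350 to 9845 CPM in other barcodes, and Col6a3 at 763, 855, 319 and 498 CPM. Timp3, a protease inhibitor bound to matrix, was at 1418, 1859, 2034 and 1921 CPM and was above other barcodes in each library.

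Of 24 chemokines and cytokines 5 were measured and 5 had 0 UMIs in all libraries. Cxcl12, which holds leukocytes and progenitors near vessels, was 1.07-fold (0.896 to 1.29) in quadriceps and 0.486-fold (0.299 to 0.771) in diaphragm for genotype, or 0.508-fold without the richest cell of each library. Ccl11, an eosinophil attractant, was at 137, 274, 185 and 356 CPM, 2.01-fold (1.29 to 3.20) and 1.92-fold (0.878 to 4.44) higher in mdx5cv/Ccr2-/-. At 1000 UMIs per cell it was seen in 4.92%, 17.2%, 8.0% and 11.1% of pericytes and in at most 0.162% of endothelial barcodes. Of interferon and antigen presentation genes 18 were measured, with medians of 0.29 and 0.27 for genotype, 1 higher in quadriceps and 4 higher and 1 lower in diaphragm. H2-D1, an MHC class I chain, was 1.52-fold (1.20 to 1.94) and 1.35-fold (0.808 to 2.28).

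Heat shock chaperones gave the list median farthest from 0 for genotype in diaphragm among lists with more than 1 measured gene. Of 12 measured genes, 0 were past 2-fold higher and 6 lower in mdx5cv/Ccr2-/- (median -0.96), beside 13.0% and 11.1% of all measured genes. In mdx5cv, 6 were higher and 0 lower in diaphragm over quadriceps (median 1.2), beside 6.33% and 10.1% of all. Their summed level was 4343, 4092, 9953 and 4908 CPM, with the mdx5cv diaphragm above the rest. A single pericyte of 1855 UMIs there held 178 heat shock UMIs, 9.60% of its RNA. Without the richest cell of each library, chosen after seeing the data, the genotype count in diaphragm was 1 higher and 1 lower (median -0.45). The count in mdx5cv was then 3 higher and 1 lower in diaphragm (median 0.70), and the mdx5cv diaphragm stood at 7184 CPM. Of immediate early genes, which dissociation induces, 13 were measured, with medians of 0.25 and -0.14 for genotype. Dusp1, a phosphatase of this group, was at 132, 92.6, 403 and 178 CPM and Jun at 353, 385, 454 and 213 CPM.

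In the list of hypoxia and glycolysis 12 of 30 were measured, with medians of 0.54 and 0.63 for genotype, 1 higher and 1 lower in quadriceps and 5 higher and 0 lower in diaphragm. Over all measured genes 2.51% were higher and 1.16% lower in quadriceps, and 13.0% and 11.1% in diaphragm. Ndufa4l2, the most abundant gene of the list, was 1.50-fold in quadriceps and 0.657-fold in diaphragm, so in diaphragm it went the other way. The higher gene in quadriceps was Higd1b and the lower was Gapdh, a glycolytic enzyme, at 513, 233, 504 and 320 CPM, a ratio of 0.454 (0.328 to 0.625). The deepest cell of the mdx5cv quadriceps held 39 of its 109 Gapdh UMIs, and without the richest cell of each library the ratio was 0.592, short of 2-fold. Epas1, the transcription factor HIF-2 alpha, was at 462, 485, 235 and 533 CPM. Of the respiratory chain pairs Cox4i1, the widely expressed copy, was at 598, 652, 588 and 356 CPM and Cox4i2 at 217, 315, 370 and 356 CPM. Of 39 transcription factors 17 were measured, with medians of -0.033 and 0.074. Nr2f2, a factor of venous and mural fate, was at 834, 815, 555 and 871 CPM and Zeb2 at 1149, 1433, 1210 and 1209 CPM.

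Igfbp5 and Igfbp7, secreted proteins that bind insulin-like growth factors, were the most abundant of the 7 measured IGF genes. Igfbp5 was at 1526, 1848, 2169 and 3219 CPM, with diaphragm ratios of 1.42 (1.15 to 1.75) in mdx5cv and 1.74 (1.46 to 2.07) in mdx5cv/Ccr2-/-. A single cell held 106 of the 181 Igfbp5 UMIs of the mdx5cv/Ccr2-/- diaphragm, and without the richest cell of each library these ratios were 1.29 and 0.902, so that the second turned. Igfbp7 was at 1182, 1833, 941 and 2027 CPM, 1.55-fold (1.33 to 1.81) and 2.15-fold (1.55 to 3.02) higher in mdx5cv/Ccr2-/-, or 1.67-fold and 1.66-fold without the richest cell of each library. Cell cycle genes were scarce: 7 of 25 were measured, and the most abundant was the histone gene H2afz at 217, 322, 219 and 409 CPM. Of TGF-beta and BMP genes 11 of 30 were measured, of integrins and adhesion genes 11 of 26, and of complement and coagulation genes 8 of 20. Serpine2, a thrombin inhibitor, was at 320, 622, 286 and 427 CPM, with genotype ratios of 1.94 (1.46 to 2.61) and 1.49 (0.769 to 2.96).

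Pericytes also differed among themselves. With 39, 64, 9 and 12 cells thinned to 2000 UMIs, 905 genes had a mean of at least 0.2 UMIs in each library, and for 20 the variance was more than 2 times the mean in every library. Gm42418, a ribosomal RNA transcript, and the nuclear RNA Malat1 varied most, with median ratios of 39.8 and 30.2. Rgs5 followed with 8.07. Igfbp5 had a ratio of 7.63 and was seen in 64.1% to 66.7% of these cells, and Mgp 7.16, seen in 33.3%, 56.2%, 100% and 100%. Hspa1a and the metallothionein gene Mt1 also varied, with ratios of 5.26 and 5.13, and Gm13889 with 4.45.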

How the data were processed

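Per the file headers the authors ran Cell Ranger 6.1.2; what they deposited are unnormalised UMI counts of 32285 genes in each barcode. The submitters' processing notes name mm10 as the build. Cell calling, annotation release and use of intronic reads: not given in the sources used here. Counts were read as deposited. Doublets were not removed beyond the zero conditions of the selection; removal by score was an alternative. UMIs of members were summed per library and given as CPM of the library's member total. Ratios carry conditional binomial intervals and shares Clopper-Pearson intervals (scipy 1.17.1, numpy 2.4.6, Python 3.11.15). Only the ratio intervals were run on simulated counts, which held counting error alone. That run cannot show how the intervals behave where single cells hold many UMIs of a gene. No test between groups was run, since each group is 1 library. For detection, cells were thinned to 1000 or 2000 UMIs with fixed seeds. Sequences are RefSeq promoter entries, and positions GENCODE M21. Genes were named by rule: the selection genes, the 20 leading genes, genes past 2-fold in both comparisons with both intervals leaving out 1, the up to 4 most abundant of each list, the 12 most variable, and 10 per direction against smooth muscle. Values of 2 genes that the rule names are not reported here. The members and lists were chosen with earlier results of these data known. Alternatives covered the selection limits, depth, doublets, scaling, pseudocount, gene filter and weight of cells. Duplicate gene symbols were read at their first row.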

Additional observations from a re-analysis of the deposited data

Results flagged for a closer look

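Kcnj8 and Ndufa4l2 stood on opposite sides of even between the genotypes in the muscles, with counting intervals that left out 1 in each; the difference between the muscles was not tested, and each group is 1 library. Kcnj8 was 1.47-fold (1.19 to 1.83) in mdx5cv/Ccr2-/- over mdx5cv in quadriceps and 0.27-fold (0.168 to 0.418) in diaphragm, from 133, 249, 102 and 26 UMIs. The selection used Kcnj8, so its level is not independent of how the cells were chosen. Ndufa4l2, a mitochondrial protein of hypoxic and mural cells, was 1.50-fold (1.22 to 1.86) and 0.657-fold (0.445 to 0.963), from 138, 264, 74 and 46 UMIs. At 1000 UMIs per cell, Ndufa4l2 was seen in 49.2%, 55.2%, 60.0% and 27.8% of pericytes and in at most 0.348% of endothelial barcodes.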

How the results depend on the processing

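Of the alternative values for the shares and the counts of genes past 2-fold, 93 stayed, 19 moved, and no ratio whose interval left out 1 crossed it. A share or gene value was said to stay if it lay within the 95% counting interval of the reported value. A wide interval thus lets more values stay, and that of Clec3b in diaphragm has no upper bound. Counts stayed if within a set fold of the reported count, by which 136 stayed beside 95. The genotype share ratios, whose intervals hold 1, lay below 1 in 4 of 11 alternatives in quadriceps and 3 of 11 in diaphragm. For named genes, whose values the gene filters cannot change, 425 stayed, 46 moved and 9 reversed. Past 2-fold in every alternative in both comparisons were Clec3b, Mgp, Dcn and Col18a1. Col18a1 rested on 2 UMIs in each diaphragm library. Dcn was also seen in endothelial barcodes, more often in diaphragm than in quadriceps, and the part of such background was not tested. Against pericytes plus endothelial barcodes, the share ratios were 0.700 and 0.588 for genotype (quadriceps, diaphragm) and 0.684 and 0.574 for muscle (mdx5cv, mdx5cv/Ccr2-/-). With every barcode thinned to 2000 UMIs first, the muscle ratios were 0.0766 and 0.11, each from 12 diaphragm members. With Myh11 at 0 the second was 0.377. With up to 10 Myh11 UMIs, chosen after seeing the data, the genotype ratio in quadriceps was 1.33 (1.03 to 1.73). The 95 genes of the quadriceps genotype comparison were 33 after thinning, 52 with 20 CPM added, 11 among genes above 200 CPM, 161 by the mean over cells and 31 with up to 10 Myh11 UMIs. The 624 of the diaphragm were 172 with Myh11 at 0 and 66 above 200 CPM, the 426 of muscle in mdx5cv 160 and 40, and the 347 in mdx5cv/Ccr2-/- 123 and 21, or 525 by the mean over cells. On the log2 scale for diaphragm over quadriceps, Ccl19 reversed to -2.82 and -3.94 with Myh11 at 0, to -0.29 after thinning in mdx5cv and to -2.67 without the deepest cell in mdx5cv/Ccr2-/-; without the richest cell for the gene in each library, also chosen after seeing the data, Ccl19 was at -1.70 and Fst at -0.40 in mdx5cv/Ccr2-/-; Fst reversed to -0.51 with Pecam1, C1qa and Lum also at 0 in mdx5cv and to -3.27 with Myh11 at 0 in mdx5cv/Ccr2-/-, where Hspa1b was at -0.92. Fewer cells and genes entered with Myh11 at 0 (84 cells) and above 200 CPM (648 genes); the cause of the other changes was not tested. Mgp stayed higher in diaphragm in all 16 alternatives, from 1.40 to 3.39 in mdx5cv and 1.16 to 1.87 in mdx5cv/Ccr2-/- (log2), and Clec3b stayed higher in mdx5cv/Ccr2-/- in all 16, from 2.27 to 3.55 in quadriceps. No scaling moved the median of all genes by over 0.1. No paired analysis was possible because each group is 1 library and the labels number no replicates.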
